A study of Rattus norvegicus with 17 samples.

Results

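Immediate early genes are those that cells switch on within minutes of a stimulus, before any new protein is made. The set described here holds 10 of them, Fos, Fosb, Jun, Junb, Egr1, Ier2, Ier3, Dusp1, Atf3 and Nr4a1, and was chosen by gene name from the array's own annotation. Each of the 10 was measured by 1 probe, out of 41012 probes under 35561 names. Colon mucosa came from 17 female rats carrying the HLA-B27 and β2-microglobulin transgenes on an inbred Fisher 344 background, a model of colitis, with an age of 8 to 10 weeks when the feeding began. A diet with 120 mmol calcium per kg (high calcium) was fed to 8 rats, and one with 30 mmol per kg (low calcium) to 9 rats. All rats ate the same purified Western diet otherwise, with glucose making room for the calcium, and all carried the transgenes, so a rat without them is no part of these comparisons. RNA from the scraped mucosa of each rat was set against a pool of all the rats on a 2-colour array, so that each value below is the log2 ratio of 1 rat to that pool. Such a ratio cannot show whether a gene was raised in all the rats alike.

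In resting tissue these genes are usually low. Growth factors, cytokines, mechanical stretch, wounding and stress reach them through MAP kinases, the serum response factor SRF with its partners, and CREB, which already sit at their promoters. Fos and Jun family proteins pair into the AP-1 transcription factor, EGR and NR4A proteins are further transcription factors, and phosphatases such as Dusp1 switch the kinases off again. Because the response is so fast, the time and handling between death and freezing can itself raise such genes in collected tissue. The order in which the rats were killed and the time to freezing are not given in the sources used here.

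In the Cy5 channel, which holds the rat's RNA, 60.6% to 72.5% of the spots on an array exceeded the scanner software's limit for signal well above background, and at most 3 were saturated. The probes of all 10 genes lay well above background on all 17 arrays, with 0 saturated, so none of them depended on the filter for low signal. Their mean Cy5 signal before background correction ran from 413 for Fosb to 43484 for Ier2. The median Cy5 signal of an array was 147 to 181. Scraped mucosa holds several cell types: all 10 epithelial markers listed passed that filter, as did 8 of 9 smooth muscle markers, 8 of 8 fibroblast markers and 11 of 12 leukocyte markers on the array. In such samples fewer cells of a type and less RNA per cell cannot be told apart. Jun and Egr1 were printed as 10 spots each. The SD over the spots of an array had a median of 0.034 for Jun and 0.040 for Egr1, and the SD between rats of a diet was 24.0 and 18.3 times the SE that this spot spread gives a rat's value; this SE covers spots within 1 hybridisation and leaves out error of extraction, labelling and array. The other 8 genes had 1 spot each and no such error. Per the file headers the probes lie on build rn3, Fos at chr6:109564555-109564614, Fosb at chr1:78746783-78746842, Jun at chr5:115363990-115364049, Junb at chr19:24837607-24837666, Egr1 at chr18:27373819-27373878. The other probes lie as follows: Ier2 at chr19:25165474-25165533, Ier3 at chr20:3077059-3077118, Dusp1 at chr10:16945391-16945710, Atf3 at chr13:107380795-107380853 and Nr4a1 at chr7:140096879-140096938; gene models of that build were not used here. Slides 1 to 4 each carried 2 rats of either diet, and slide 5 carried low calcium rat 1 alone.

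Promoter windows of 300 bases, from 250 before to 50 after the start in RefSeq's GRCr8 annotation, were found for 6 of the 10 genes, namely Fosb, Junb, Egr1, Ier2, Dusp1 and Nr4a1. Of these, 5 are shown because they stand for the patterns of variation between rats described below: Junb and Dusp1 varied with Fos, Ier2 and Nr4a1 varied with each other, and Egr1 had slopes on Fos of opposite sign in the 2 diets. Capitals mark the cAMP response element TGACGTCA in Dusp1 and Ier2, the sequence TGCGTCA in Nr4a1 and the CArG box, the site known to bind SRF, in Egr1. The windows are Junb at chr19:40080876-40081175 (+), Dusp1 at chr10:17184603-17184902 (+), Ier2 at chr19:40399123-40399422 (+), Nr4a1 at chr7:134259888-134260187 (+) and Egr1 at chr18:26736828-26737127 (+).
Junb: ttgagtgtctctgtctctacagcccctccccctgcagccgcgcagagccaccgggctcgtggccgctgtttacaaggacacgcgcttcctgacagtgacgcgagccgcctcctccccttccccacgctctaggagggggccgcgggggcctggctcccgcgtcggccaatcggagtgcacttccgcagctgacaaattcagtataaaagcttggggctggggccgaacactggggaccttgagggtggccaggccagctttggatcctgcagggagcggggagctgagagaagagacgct
Dusp1: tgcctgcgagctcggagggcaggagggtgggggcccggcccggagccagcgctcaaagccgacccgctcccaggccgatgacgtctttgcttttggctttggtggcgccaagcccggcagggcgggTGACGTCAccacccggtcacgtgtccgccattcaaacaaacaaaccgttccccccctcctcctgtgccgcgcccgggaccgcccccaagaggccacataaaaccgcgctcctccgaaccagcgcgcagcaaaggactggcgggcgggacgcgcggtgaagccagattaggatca
Ier2: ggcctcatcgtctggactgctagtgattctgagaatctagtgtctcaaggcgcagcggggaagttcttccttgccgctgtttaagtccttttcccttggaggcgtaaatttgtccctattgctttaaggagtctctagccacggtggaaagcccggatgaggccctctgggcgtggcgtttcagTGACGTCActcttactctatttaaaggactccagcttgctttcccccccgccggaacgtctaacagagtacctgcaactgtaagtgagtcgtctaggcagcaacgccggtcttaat
Nr4a1: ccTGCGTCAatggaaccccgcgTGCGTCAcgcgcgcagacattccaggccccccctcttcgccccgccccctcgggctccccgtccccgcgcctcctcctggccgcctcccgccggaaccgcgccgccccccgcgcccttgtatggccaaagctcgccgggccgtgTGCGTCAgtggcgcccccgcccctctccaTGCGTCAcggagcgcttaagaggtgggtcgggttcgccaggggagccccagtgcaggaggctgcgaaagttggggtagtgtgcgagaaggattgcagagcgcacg
Egr1: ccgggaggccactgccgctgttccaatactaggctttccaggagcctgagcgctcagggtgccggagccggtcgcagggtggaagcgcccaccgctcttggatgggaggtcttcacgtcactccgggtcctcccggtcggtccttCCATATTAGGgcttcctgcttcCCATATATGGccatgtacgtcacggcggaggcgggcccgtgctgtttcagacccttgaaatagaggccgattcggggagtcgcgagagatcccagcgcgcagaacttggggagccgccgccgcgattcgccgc

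Both strands were searched in all 33469 windows of the table. The full element TGACGTCA occurred once in Dusp1, beginning at base -124 from the start, and once in Ier2, at base -66, and 1.83% of all windows held it. Egr1 held 2 CArG boxes, beginning at bases -105 and -83, against 1.64% of all windows with at least 1. Nr4a1 held TGCGTCA 4 times, against 1.90% of all windows with at least 1; this sequence was added to the search after the Nr4a1 window had been read. The AP-1 site TGACTCA occurred in 0 of the 6 windows and in 4.63% of all windows. The shorter TGACG, which lies inside TGACGTCA and, read on the other strand, overlaps TGCGTCA, occurred in 5 of the 6 windows, all but Fosb, and in 21.2% of all windows. A match describes these letters in this window and shows no binding.

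None of the AP-1 genes passed the test between diets that is given below. Fos, whose protein pairs with Jun proteins to form AP-1, had log2 ratios with a lowest value of -0.34, a median of -0.12 and a highest of 0.05 in high calcium rats, against -0.33, -0.06 and 0.39 in low calcium rats. The groups overlapped over most of this range, with 1 high calcium rat below every low calcium rat and 3 low calcium rats above every high calcium rat. High minus low calcium was -0.06 ± 0.08 (SE of limma's fit over 8 and 9 rats, as below), with a 95% interval of -0.23 to 0.11. Jun, the usual partner of Fos, ran from -0.08 through a median of 0.09 to 0.58 in high calcium rats and from -0.52 through -0.01 to 0.47 in low calcium rats. The highest Jun value was in high calcium rat 18 and the 4 lowest were all in low calcium rats. The difference was 0.15 ± 0.13, with a 95% interval of -0.11 to 0.42. Junb, a Jun protein that partly opposes Jun, ran from -0.44 through -0.32 to -0.09 in high calcium rats and from -0.63 through -0.31 to -0.01 in low calcium rats, with the low calcium rats at both ends. Its difference was 0.01 ± 0.08, and its sign turned without rat 5, 13, 16 or 18. Fosb, a Fos relative, ran from -0.07 through 0.07 to 0.33 in high calcium rats and from -0.09 through -0.01 to 0.11 in low calcium rats. Here 4 high calcium rats lay above every low calcium rat, and the difference was 0.08 ± 0.05. Atf3, a stress-induced partner of Jun proteins, had the widest range of the 10 genes, from -0.08 through 0.03 to 0.69 in high calcium rats and from -0.46 through 0.06 to 0.56 in low calcium rats. The lowest and highest rat differed 2.21-fold for Atf3, whereas the diets differed by 0.09 ± 0.13 (95% interval -0.19 to 0.37).

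The other genes did not pass that test between diets either. Dusp1, the phosphatase that inactivates MAP kinases, ran from -0.42 through -0.25 to -0.03 in high calcium rats and from -0.52 through -0.07 to 0.36 in low calcium rats. The 4 highest values all belonged to low calcium rats, but so did the lowest. Its difference was -0.22 ± 0.10, with a 95% interval of -0.44 to -0.0029, and it was lower in the high calcium rats of each of the 4 shared slides, by -0.03, -0.24, -0.37 and -0.37. Ier3, an early response gene known for its role in cell survival, ran from -0.15 through -0.07 to 0.38 in high calcium rats and from -0.13 through 0.16 to 0.36 in low calcium rats. All high calcium rats but rat 9 lay below 0, and 7 low calcium rats lay above it, with a difference of -0.14 ± 0.07. Ier2, an early response gene that encodes a nuclear protein, ran from 0.07 through 0.14 to 0.35 in high calcium rats and from -0.17 through 0.09 to 0.21 in low calcium rats, a difference of 0.08 ± 0.05. It was higher in the high calcium rats of all 4 shared slides, by 0.01 to 0.23. All genes but Dusp1 and Ier2 changed sign between these slides. The share of all probes with the same sign on all 4 slides was not counted. Egr1, a zinc finger transcription factor, ran from -0.27 through -0.02 to 0.40 in high calcium rats and from -0.21 through 0.12 to 0.57 in low calcium rats, a difference of -0.11 ± 0.10. Nr4a1, an orphan nuclear receptor, ran from -0.27 through -0.07 to 0.32 in high calcium rats and from -0.11 through 0.05 to 0.25 in low calcium rats, a difference of -0.09 ± 0.07. The groups overlapped for all 10 genes.

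**Figure D1:**
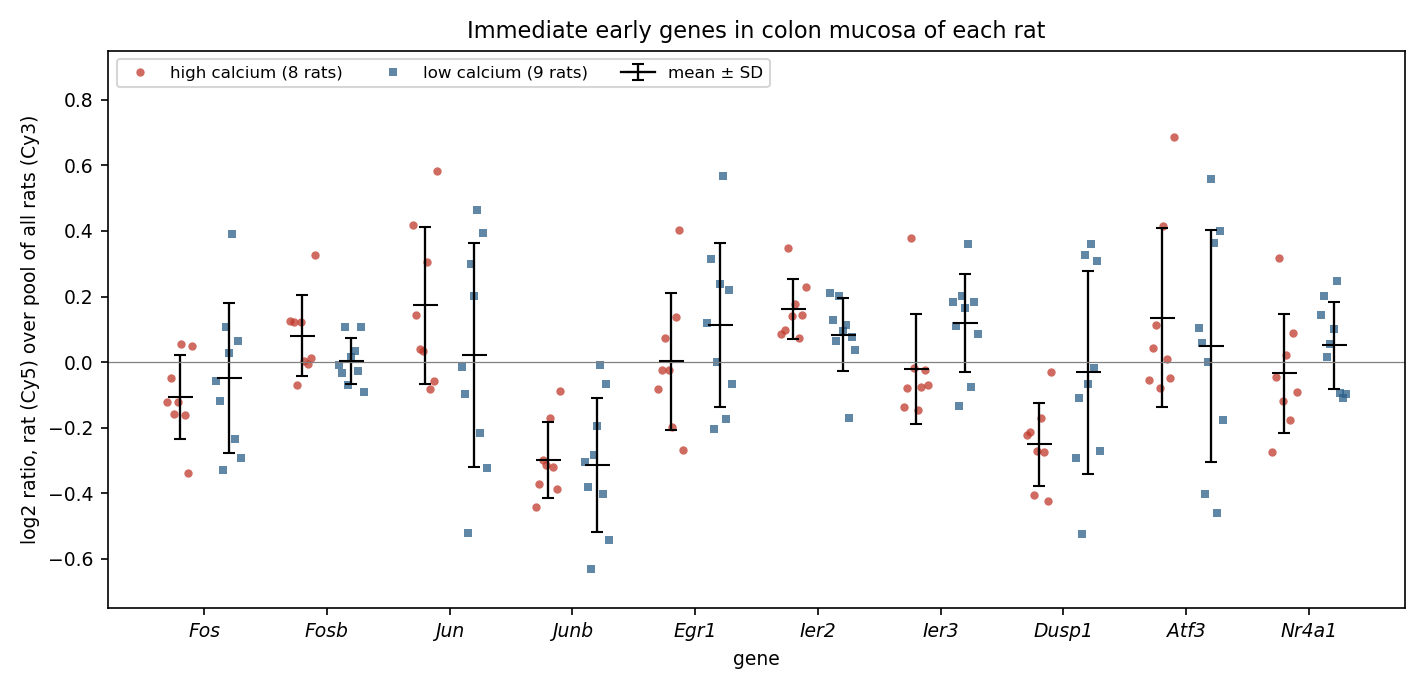
Log2 ratio of each rat to the pool of all rats (vertical axis) for the 10 immediate early genes (horizontal axis), with 8 high calcium rats as red circles and 9 low calcium rats as blue squares; black bars give the mean ± SD. The groups overlap for every gene, and the high calcium rats lie closer together than the low calcium rats for Fos, Junb and Dusp1 and farther apart for Fosb.

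With limma's test and Benjamini-Hochberg adjustment over all 27083 probes, 0 of the 10 genes passed an adjusted p of 0.05, and 0 (0%) of all probes did. Dusp1 was the 1 of the 10 with an unadjusted p under 0.05 (limma adjusted p = 0.56), against 8.79% of all probes, so the share among these genes was near that of the array. An exact two-sided permutation test over all 24310 assignments of the rats gave p = 0.085 for Dusp1 (adjusted p = 0.66 over 26950 probes). It called 0 probes at an adjusted p of 0.05 and 2272 at an unadjusted p under 0.05. The median difference over the 10 genes was -0.02, with 5 higher and 5 lower, against 0.01 over all probes. Without rat 3 limma called 194 probes between diets and without rat 16 it called 39, with 0 of the 10 genes among them in either case. All 8 fibroblast markers were lower in high calcium rats at an unadjusted p under 0.05, with list means from -0.80 to 0.21 in high calcium rats and from -0.13 to 0.52 in low calcium rats. Leukocyte markers were lower for 5 of 11 at that level and higher for 0, and endothelial markers were lower for 2 of 4 and higher for 0. Of 8 smooth muscle markers 1 was lower and 1 higher, and of 10 epithelial and 3 red cell markers 0 reached that level. Over all 27083 probes 1311 were lower and 1070 higher at that level. The part of these cell types in the differences of Dusp1 and Ier3 was not tested.

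Between rats of the same diet, most of these genes varied more than the usual probe. The median within-diet SD was 0.18 over the 10 genes and 0.12 over all probes, and 8 of the 10 lay above that median. By this SD Atf3 stood at percentile 98.4 of all probes, Jun at 98.0, Dusp1 at 95.6, Egr1 at 94.9, Fos at 89.1, Junb at 84.0, Ier3 at 79.9 and Nr4a1 at 79.4, while Ier2 stood at 33.4 and Fosb at 29.2. Fosb had the lowest mean Cy5 signal of the 10 genes and Ier2 the highest. The part of signal level in the spread was not tested. High calcium rat 18 had the highest value for Jun, Fosb and Atf3, high calcium rat 9 for Ier2, Ier3 and Nr4a1, and low calcium rat 8 for Fos, Junb, Egr1 and Dusp1. Low calcium rat 5 was lowest for Jun, Junb and Dusp1. The SD in high calcium rats was 0.56 times that in low calcium rats for Fos, 0.57 times for Junb and 0.41 times for Dusp1, and between 0.70 and 0.83 times for Jun, Atf3, Ier2 and Egr1. It was larger in high calcium rats for Fosb (1.77 times), Nr4a1 (1.36 times) and Ier3 (1.12 times), and these ratios were not tested.

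Many of the genes varied together from rat to rat, but not as 1 block. After each diet's mean was removed, the 45 pairs among the 10 genes had a median Pearson's r of 0.35, against 0.01 over 363137775 pairs of probes, and r was at least 0.7 in 9 pairs (20%), against 0.895% of all pairs of probes. Fos, Jun, Junb, Dusp1 and Atf3 varied most alike, with r from 0.55 to 0.88 and a median of 0.83 over their 10 pairs. Ier2, Ier3 and Nr4a1 formed another set, with r from 0.68 to 0.69 over 3 pairs. The 15 pairs between these sets had r from -0.08 to 0.49 and a median of 0.31. With slide and diet removed, r between the sets ran from -0.03 for Dusp1 and Nr4a1 to 0.83 for Ier2 and Atf3. Within the set of Ier2, Ier3 and Nr4a1 it then ran from 0.63 to 0.67, so the sets were not cleanly apart. Fosb had a median r of 0.23 with the other 9 genes, of which 5 pairs were positive, and r was negative with Nr4a1 (-0.36), Ier3 (-0.32), Egr1 (-0.26) and Ier2 (-0.08). Egr1 had a median r of 0.28, with its highest value of 0.59 for Ier3. These sets were read from the correlations, so their r is a description. The mean of Fos, Jun, Junb, Dusp1 and Atf3 ran from -0.25 in rat 17 to 0.24 in rat 18 among high calcium rats, and from -0.48 in rat 5 to 0.31 in rat 8 among low calcium rats. The mean of Ier2, Ier3 and Nr4a1 ran from -0.11 in rat 2 to 0.35 in rat 9 among high calcium rats, and from -0.11 in rat 11 to 0.24 in rat 8 among low calcium rats.

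**Figure D2:**
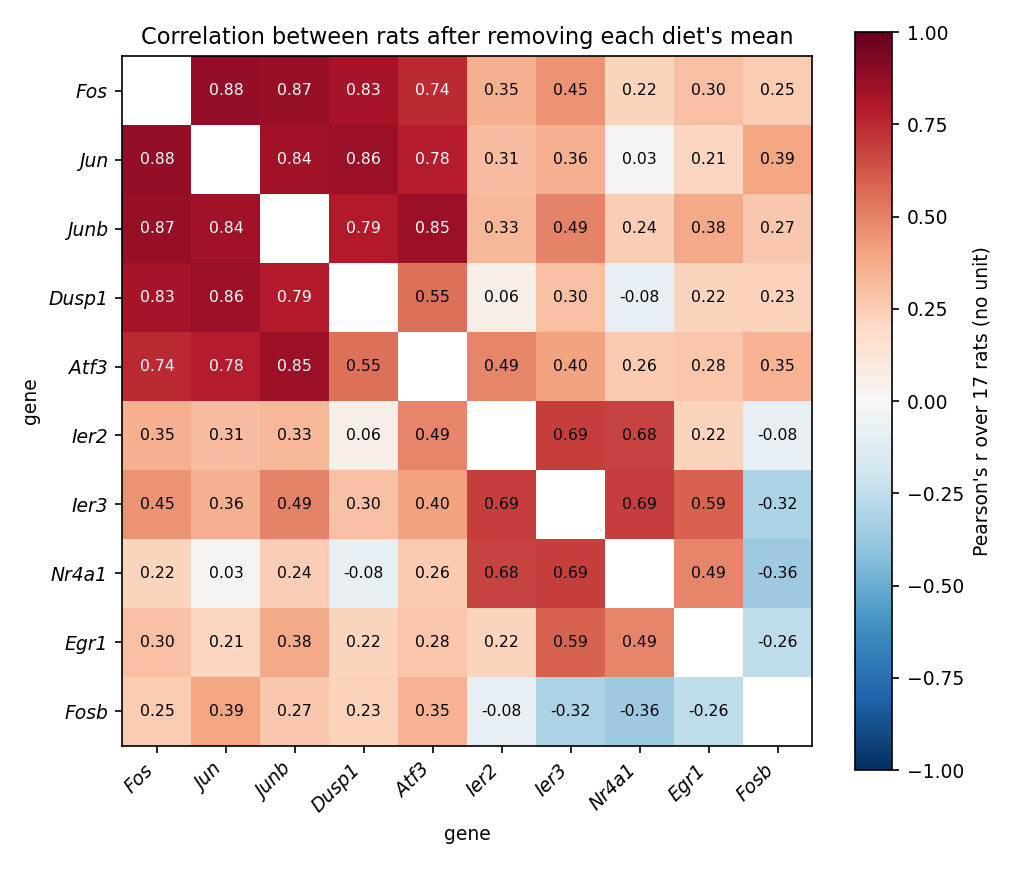
Pearson's r (colour and number) between each pair of the 10 genes over 17 rats, after the mean of each diet was removed; both axes list the genes. Fos, Jun, Junb, Dusp1 and Atf3 form the darkest block, with r from 0.55 to 0.88, and Ier2, Ier3 and Nr4a1 a smaller one, with r from 0.68 to 0.69.

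Fos and each of Jun, Junb, Dusp1 and Atf3 were positively correlated in both diets. Fos and Jun had r = 0.88 (permutation p = 1e-05, the smallest that 1e+05 permutations within diets can give) and Spearman's rho = 0.89 (permutation p = 5e-05). Without rats 6 and 8, the 2 farthest from the median of Fos, r was 0.87. It was 0.73 among high calcium rats and 0.94 among low calcium rats, and 0.93 with slide and diet removed. Fos and Junb had r = 0.87 (permutation p = 4e-05) and rho = 0.88 (permutation p = 1e-05), with r = 0.86 without those 2 rats, 0.70 in high and 0.92 in low calcium rats, and 0.93 with slide and diet removed. Fos and Dusp1 had r = 0.83 (permutation p = 0.00028) and rho = 0.80 (permutation p = 0.00052), with 0.74 without those rats, 0.87 in high and 0.82 in low calcium rats, and 0.92 with slide and diet removed. Fos and Atf3 had r = 0.74 (permutation p = 0.00145) and rho = 0.76 (permutation p = 0.0015), with 0.85 without those rats, 0.75 in high and 0.75 in low calcium rats, and 0.69 with slide and diet removed. The p values in this paragraph are 2-sided and are not adjusted over the 45 pairs. The sets were read from these same correlations, so the p values of their pairs lend them no support. For the pairs with Fos, the fit across all probes below carries the adjustment. In that fit with Ier2, Ier3 or Nr4a1 in the place of Fos, 0 of the other 9 genes passed. Ier2 and Nr4a1 had r = 0.68 (permutation p = 0.00216) and rho = 0.70 (permutation p = 0.00284). Without rats 9 and 11, the farthest from the median of Ier2, their r was 0.49; it was 0.81 in high and 0.59 in low calcium rats, and 0.63 with slide and diet removed. Ier2 and Ier3 had r = 0.69 (permutation p = 0.00668) and rho = 0.68 (permutation p = 0.00356), with r = 0.32 without rats 9 and 11, 0.81 in high and 0.61 in low calcium rats, and 0.67 with slide and diet removed. Ier3 and Nr4a1 had r = 0.69 (permutation p = 0.00612) and rho = 0.50 (permutation p = 0.0458), with r = 0.28 without rats 9 and 8, the farthest from the median of Ier3, 0.81 in high and 0.54 in low calcium rats, and 0.65 with slide and diet removed. The r of each of these pairs was smaller without rat 9 and the other rat named.

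Of all probes tested, Jun had the smallest p for following Fos from rat to rat. Each probe was fitted on diet and the Fos value of the rat, and the slope gives its log2 change per log2 unit of Fos. Jun had a slope of 1.40 ± 0.19 (limma adjusted p = 0.0049 over 27082 probes, rank 1 by p), Junb one of 0.79 ± 0.13 (adjusted p = 0.0057, rank 31), Dusp1 one of 1.07 ± 0.18 (adjusted p = 0.0067, rank 42) and Atf3 one of 1.26 ± 0.27 (adjusted p = 0.018, rank 201). In all, 4 of the 9 other genes rose with Fos and 0 went opposite, against 1.88% of all probes that rose with it and 0.705% that went opposite; when arrays were only centred on their medians, without loess, all 9 passed, but 62.8% of all probes did as well. Ier3 (slope 0.38 ± 0.19), Egr1 (0.38 ± 0.28), Ier2 (0.19 ± 0.14), Nr4a1 (0.19 ± 0.20) and Fosb (0.13 ± 0.14) did not pass, with adjusted p from 0.41 to 0.81. Atf3 was lost with the slide as a block (adjusted p = 0.11) and without rat 5 (0.076) or rat 16 (0.057). The count of all probes that rose or fell with Fos was 700, and it was 75 without rat 16, 79 without rat 5, 303 without rat 17, 410 without rat 8 and 134 with the slide as a block.

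**Figure D3:**
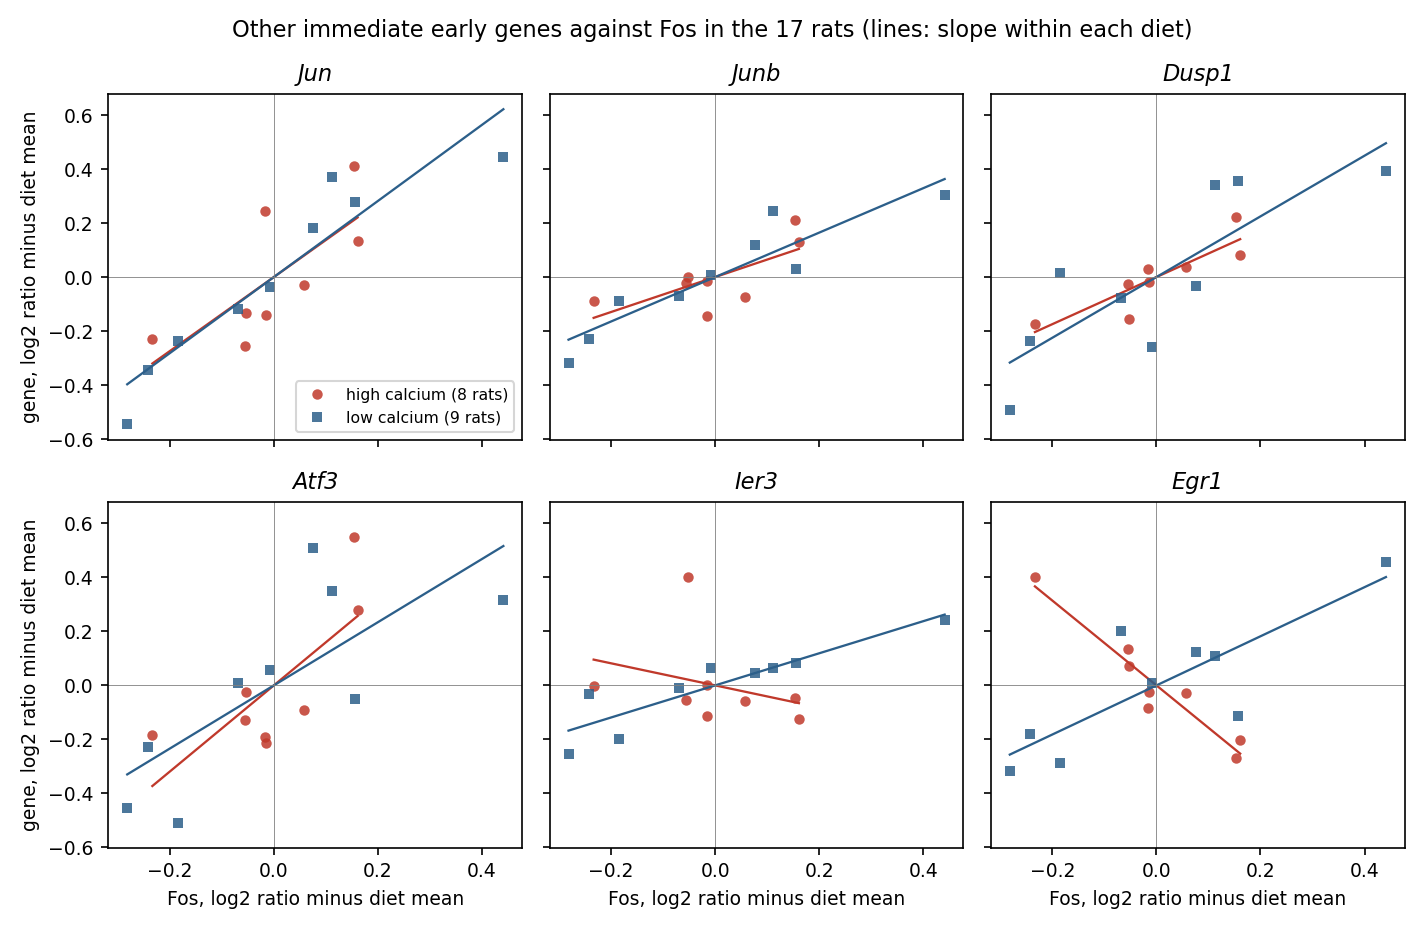
Each of 6 genes (vertical axes, log2 ratio minus the mean of the diet) against Fos (horizontal axes, same scale) in 8 high calcium rats (red circles) and 9 low calcium rats (blue squares), with the slope within each diet as a line. Jun, Junb, Dusp1 and Atf3 have positive slopes in both diets, whereas the Egr1 line has a slope of -1.57 in high calcium rats and 0.91 in low calcium rats.

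The same fit with each other gene in the place of Fos gave 2 kinds of outcome. With Jun as the index gene Fos, Junb, Dusp1 and Atf3 rose with it (4 of 9, against 2.69% of all probes), and with Junb the others of that set did (4 of 9, against 3.44%). With Dusp1, Fos, Jun and Junb did (3 of 9, against 2.97%), and with Atf3, Jun and Junb did (2 of 9, against 0.366%), while Fos had an adjusted p of 0.057. With Fosb, Egr1, Ier2, Ier3 or Nr4a1 as the index, 0 of the other 9 genes and 0% of all probes passed limma's adjusted p of 0.05, and 2864, 1008, 1238, 1562 and 2209 probes in that order had an unadjusted p under 0.05. Among these were Ier3, Nr4a1 and Atf3 with Ier2 as the index (slopes 1.07 ± 0.30, 1.04 ± 0.30 and 1.52 ± 0.63). With Ier3 as the index they included Ier2, Nr4a1, Egr1 and Junb. With Nr4a1 they included Ier2, Ier3 and Egr1, and with Egr1 they included Ier3 and Nr4a1. With Fosb the smallest unadjusted p of the other 9 genes was 0.080 by limma, for Jun.

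Egr1 had slopes on Fos of opposite sign in the 2 diets. In high calcium rats its slope on Fos was -1.57, and in low calcium rats 0.91. Egr1 was highest, at 0.40, in high calcium rat 17, where Fos was lowest, at -0.34, and it was lowest, at -0.27 and -0.20, in rats 18 and 13, where Fos was highest, at 0.05 in each. Among low calcium rats, rat 8 was highest for both, at 0.57 for Egr1 and 0.39 for Fos, and rat 5 lowest for both, at -0.21 and -0.33. The slopes differed by -2.48 ± 0.39 (limma interaction, adjusted p = 0.043), and 3 of 27082 probes (0.0111%) passed, with 1742 at an unadjusted p under 0.05. This test was added after the values of each rat had been seen, and Egr1 was the single one of 9 genes to pass it. The adjusted p was over 0.05 in 8 of 9 other settings, up to 0.99 with median centring of the arrays, where the difference was -1.18, and without any one of 15 of the 17 rats, up to 0.32 without rat 17. Ier3 had slopes of -0.41 in high and 0.59 in low calcium rats, and the difference of -1.003 ± 0.411 did not pass (adjusted p = 0.75). Jun, Junb, Dusp1 and Atf3 had slopes of 1.37, 0.65, 0.87 and 1.60 in high calcium rats, against 1.41, 0.82, 1.12 and 1.17 in low calcium rats, and the adjusted p of their differences was at least 0.91.

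Related early genes followed Fos in part. Of 12 feedback inhibitors tested 4 rose with it and 0 went opposite: the MAP kinase phosphatases Dusp5 (slope 1.12 ± 0.18, adjusted p = 0.0057) and Dusp6 (0.81 ± 0.19), and the NF-κB regulators Nfkbiz (0.73 ± 0.18) and Nfkbia (0.58 ± 0.15). Of 8 other EGR, NR4A and KLF genes 2 rose, the zinc finger factors Klf10 (0.68 ± 0.16) and Klf6 (0.83 ± 0.20), and Egr2 had 0.65 ± 0.20 (adjusted p = 0.093). Of 8 secreted or surface proteins 2 rose, the urokinase receptor Plaur (1.20 ± 0.24) and the matricellular protein Ccn1 (1.00 ± 0.25). Of 21 other early regulators 2 rose, the antiproliferative gene Btg2 (0.85 ± 0.19) and the pseudokinase Trib1 (0.71 ± 0.16). Of 16 upstream signalling genes 1 rose, the growth factor receptor Egfr (1.24 ± 0.20, adjusted p = 0.0057). Of 8 other AP-1 genes 0 passed, the smallest adjusted p being 0.098 for Mafk, a small Maf protein (0.42 ± 0.13). The lists were drawn up with results of these data known, so these counts stand beside the 1.88% of all probes as a description.

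**Figure D4:**
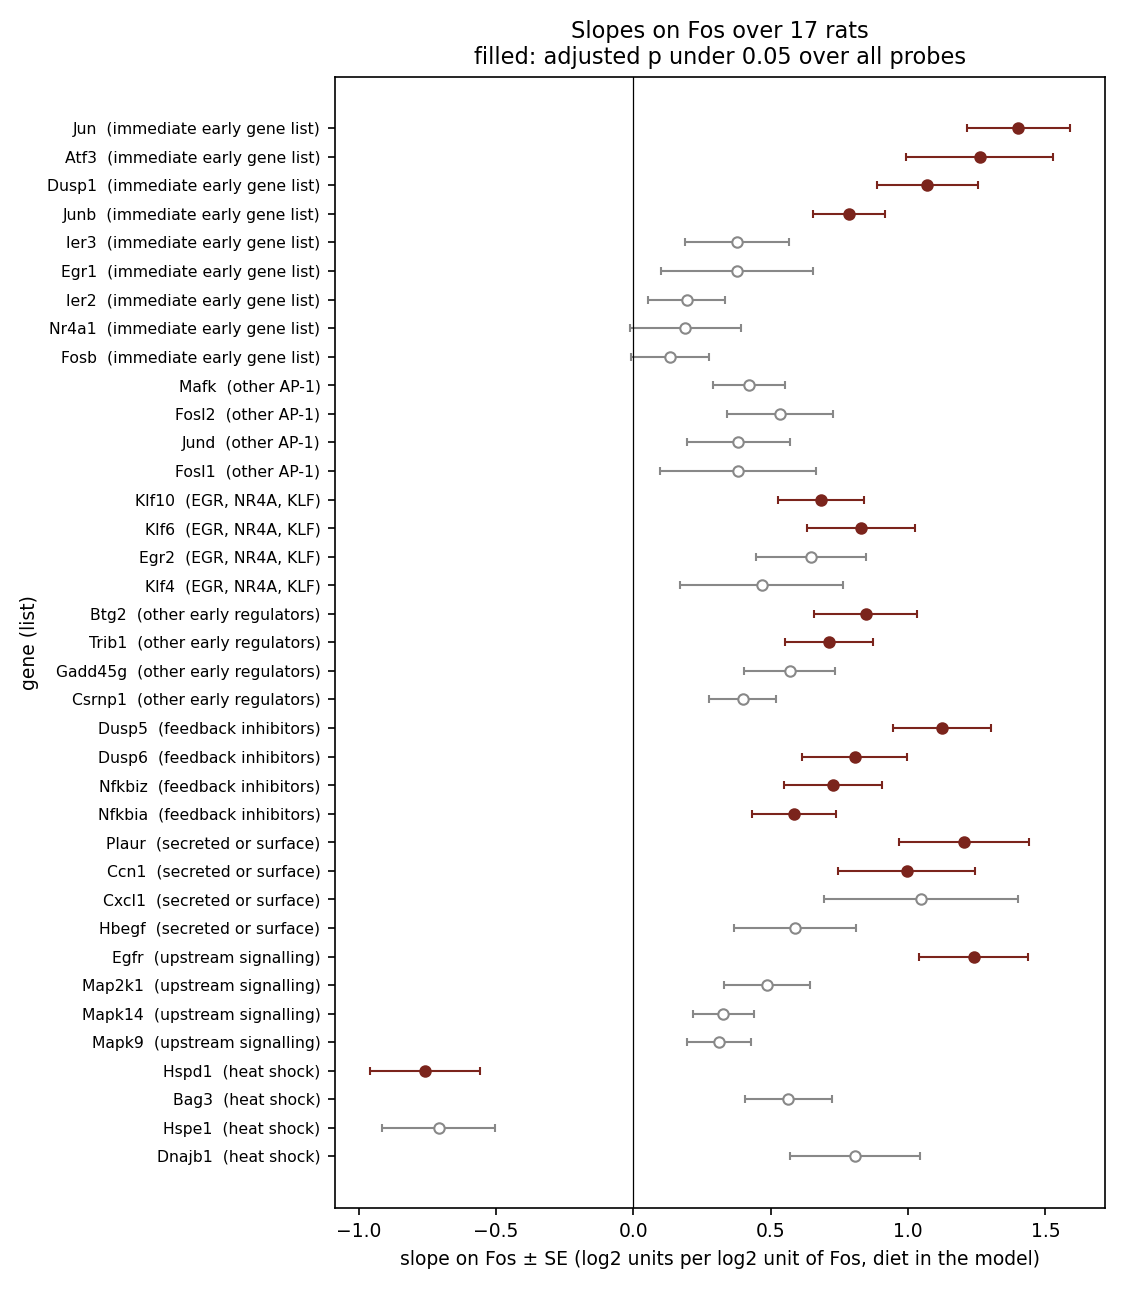
Slope on Fos ± SE (horizontal axis, log2 units per log2 unit of Fos, with diet in the model, 17 rats) for the 9 other immediate early genes and, from each related list, the 4 genes with the smallest p (vertical axis). Filled red points passed an adjusted p of 0.05 over all probes; Jun lies farthest right at 1.40, and Hspd1 is the one filled point left of 0, at -0.76.

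Heat shock genes, which cells raise under stress, were looked up in the fit on Fos as well. Their counts stand against 1.88% of all probes that rose with Fos and 0.705% that went opposite. A list of 12 genes is too short to set 0 apart from the first share. Of 12 tested 0 rose with Fos and 1, the mitochondrial chaperonin Hspd1, went opposite (-0.76 ± 0.20, adjusted p = 0.047), with its partner Hspe1 at -0.71 ± 0.21 (adjusted p = 0.070). The cochaperones Bag3 (0.56 ± 0.16, adjusted p = 0.060) and Dnajb1 (0.81 ± 0.24, adjusted p = 0.075) had positive slopes. Between diets 0 genes of any of these lists passed. Those with the smallest unadjusted p were Ier5l (-0.26 ± 0.07, adjusted p = 0.20), the G protein regulator Rgs2 (-0.39 ± 0.12), the nuclear receptor Nr4a2 (0.22 ± 0.08), the matricellular protein Ccn2 (-0.52 ± 0.18) and Fosl1, a Fos relative (-0.27 ± 0.10). The heat shock list mean ran from -0.25 to 0.53 in high calcium rats and from -0.23 to 0.40 in low calcium rats.

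Among the genes with a pattern most like that of the 10, by Pearson's r over 17 rats with the mean of their scaled diet-centred values, were Sh3glb1 (r = 0.88), a membrane-shaping protein, the deubiquitinase Usp32 (0.88), the tyrosine phosphatase Ptpre (0.86) and the cell cycle inhibitor Cdkn1a (0.85). The 10 themselves had r from 0.22 for Fosb to 0.91 for Junb with that mean, which contains them. Outside the 10, the smallest p for a rise with Fos belonged to the hydrolase Abhd2 (1.26 ± 0.19), the stress phosphatase subunit Ppp1r15a (0.93 ± 0.14), Dusp5, the hexokinase Hk2 (1.15 ± 0.18) and Egfr, with an adjusted p of 0.0057 each. Among the smallest p for the opposite direction were those of genes of the translation machinery, the ribosomal proteins Rpl8 (-0.95 ± 0.16), Rpl32 (-0.89 ± 0.16) and Rpl9 (-0.74 ± 0.14) and the elongation factor subunit Eef1b2 (-0.66 ± 0.11), with adjusted p from 0.0057 to 0.011. They were picked by their p. Other genes of that machinery were not counted, and these slopes were not refitted without single rats.

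Fos was also set against 11 measures of the arrays and of other cells, each as the mean of its list or the value of the array with the diet means removed. None passed, with an adjusted p of 0.98 for each by permutation. The r was 0.01 for the median Cy5 signal (rho = 0.01), -0.37 for the number of flagged spots (rho = -0.22) and -0.16 for heat shock genes (rho = -0.10). For flagged spots it was -0.83 in high and -0.19 in low calcium rats. For the median Cy5 background it was 0.03 (rho = 0.03), and -0.58 with slide and diet removed. The part of these array measures in the joint spread was not tested. The r was 0.38 for leukocyte markers (permutation p = 0.15, rho = 0.40, permutation p = 0.13), with -0.13 in high and 0.63 in low calcium rats and 0.55 without the 2 rats farthest from the median. In the fit on Fos 0 of 11 leukocyte, 0 of 8 fibroblast, 0 of 4 endothelial and 0 of 3 red cell markers passed. Of 8 smooth muscle markers 1 passed, Actg2 (0.53 ± 0.13), and of 10 epithelial markers 1, Krt18 in the opposite direction (-0.72 ± 0.18). Over all probes 1.88% rose with Fos and 0.705% went opposite. Of the 10 epithelial markers 6 had positive slopes. At an unadjusted p under 0.05 3 epithelial markers rose with Fos and 1 went opposite. At that level 2543 of all 27082 probes rose and 1029 went opposite. Of the 11 leukocyte markers 8 had positive slopes, and the median slope was 0.12. The neutrophil proteins S100a8 and S100a9 had slopes of 1.43 ± 0.59 and 1.55 ± 0.50 without passing (adjusted p = 0.26 and 0.11). Cd3d, Coro1a and Cd79b of that list had negative slopes, of -0.28, -0.26 and -0.15. Actg2, Krt18, S100a8 and S100a9 were picked out after their values had been seen. The part of handling, leukocytes or any other cell type in the joint spread was not tested.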

How the data were processed

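Gene expression in scraped colon mucosa was measured in 17 rats on 1 array each; per the labels Cy5 marked the rat and Cy3 the pool, without a dye swap. The deposited scanner files give spot intensities, per the file headers from Agilent Feature Extraction 9.5.1.1 (9.5 in the submitters' processing notes). The deposited series matrix gives log2 values, which tracked the scanner files' log2 Cy5/Cy3 ratio without background subtraction (r = 0.980 over centred genes and arrays, neither being replicates); its array medians were all 8.76, the sources used here do not say how the authors made it, and its offset is unknown. It was an alternative only, with 0 columns unused.

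Background was corrected from the intensities by normexp (offset 50), loess normalised every array with weight 0 for control and flagged spots, and spots of a probe were averaged (limma 3.58.1, R 4.3.3), which took 43379 spots to 41012 probes. This scaling hides any shift that most genes share. Tests covered the 27083 probes whose Cy5 signal was well above background on 8 arrays or more. Groups came from the sample titles. The diet comparison used lmFit and eBayes of limma, 2-sided, at a Benjamini-Hochberg adjusted p of 0.05 across all probes; joint variation was tested by a limma fit of each probe on diet and the value of 1 index gene, for each of the 10 genes in turn. Related genes were represented by their brightest probe, with names updated through RefSeq (10735 probes by accession, 5577 by symbol, 3730 by synonym, 20970 unchanged). In each related list the up to 4 genes with the smallest p on Fos and up to 2 between diets could be named, with the 5 most like the members and the 5 with the smallest p on Fos in each direction; 2 genes under this rule are not reported here. The members, the lists and the tests were chosen with earlier results of these data known. The number of rats limits the precision. The labels number the rats individually, and each counts as 1 replicate.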

Additional observations from a re-analysis of the deposited data

Results flagged for a closer look

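In 2 of the 20 combinations of gene and diet that were searched, 1 rat lay far from the others; chance flags about 1 in 20. Ier3 was 0.38 in high calcium rat 9, where the next highest rat of that diet was at -0.02. Ier2 was -0.17 in low calcium rat 11, where the next lowest was at 0.04. Both genes had 1 spot per array. The difference of the Egr1 slope on Fos between diets, -2.48, was flagged because the interaction passed over all probes; it passed in few other settings, as given above.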

How the results depend on the processing

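The count of 0 genes between diets held in all 10 other settings and without each of the 17 rats; over all probes the count ran from 0 to 194 without single rats. The median r over the 45 pairs was 0.48 with the scanner software's processed signals, 0.53 with the series matrix values and 0.92 with median centring in place of loess, and ran from 0.30 to 0.43 without single rats. With median centring all 9 other genes followed Fos, but so did 16994 of 27082 probes (62.8%), and the difference of Fos between diets turned to 0.0018. In the other 8 settings 3 or 4 genes followed Fos, as without single rats. Without single rats the difference of Junb ran from -0.026 to 0.052 and the pooled slope of Egr1 on Fos from -0.089 without rat 8 to 0.66. The count of probes that followed Fos was also 372 with an offset of 0 and 128 with the Cy5 channel alone. The cause of these changes was not tested. The interaction of diet and Fos and the alternatives for the count of all probes on Fos were chosen after seeing the data; the fits with the other index genes were run with the reported settings only. Another probe per gene could not be tried, since each had 1. No paired analysis was possible because the diets share no replicate numbers.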
